A study of Mus musculus with 27 samples.

Results

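Late neuroblasts (LNB) of the olfactory bulb were compared with early neuroblasts (ENB) of the subventricular zone in total mRNA of sorted cells. The members were chosen by their labels alone and are 6 of the 27 libraries of the series, 3 of LNB and 3 of ENB. Both groups came from male mice of 8 to 12 weeks on a C57BL/6 background, of the line called DiCRY in the labels. These mice carry a tamoxifen-inducible Cre recombinase (CreER) driven by Dcx, the RiboTag allele that puts an HA tag on the ribosomal protein Rpl22, and an eYFP reporter, and they were given tamoxifen by gavage at 200 mg per kg. LNB were eYFP-positive cells from the dissected olfactory bulb and ENB were eYFP-positive cells from the dissected lateral subventricular zone, after digestion with trypsin and DNase and exclusion of dead cells with Sytox blue. Each library held 200 to 500 sorted cells of 1 to 2 mice, amplified from polyadenylated RNA by Smart-seq2. ENB replicate 2 and LNB replicate 3 share an animal, ENB replicate 3 and LNB replicate 2 share their animals, and the labels show no shared animal for the other libraries.

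Neuroblasts of the adult mouse are born from stem cells in the wall of the lateral ventricle and migrate in chains along the rostral migratory stream to the olfactory bulb, where they leave the chains, move radially and become inhibitory interneurons. Unlike most migrating neurons, many of them still divide in the subventricular zone and in the stream. Division needs cyclins bound to cyclin-dependent kinases, DNA replication proteins and spindle proteins, and the mRNAs of the last of these are made mainly in G2 and M phase under the MuvB complexes, which bind a promoter element named CHR.

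The 6 libraries held 6031319 to 15994635 counts. Spearman correlations of expression were 0.936 to 0.965 within ENB and 0.85 to 0.918 within LNB, and LNB replicate 2 stood closer to the ENB libraries (0.915 to 0.941) than LNB replicate 1 (0.863 to 0.867) and LNB replicate 3 (0.807 to 0.812). The libraries also fall into 2 sets. LNB replicate 2 with ENB replicates 1 and 3 came from 2 animals each and share 1 second index sequence, and LNB replicates 1 and 3 with ENB replicate 2 came from 1 animal each and share another. The sets differ in structural RNA: by TPM (transcript abundance scaled for length and depth) the signal recognition particle RNA Rn7s1 was at 23975, 10.5 and 24398 in LNB replicates 1 to 3, against 10.2, 26262 and 8.75 in ENB replicates 1 to 3, so that it was high in the single-animal libraries of both groups. In the raw counts that were tested, scaled to library size (CPM), Rn7s1 was only at 3.77, 0 and 4.45 in LNB and 0, 1.5 and 0 in ENB. There, 3 genes that overlap ribosomal RNA held 7.317% to 14.6% of counts in the 2-animal libraries and 2.232% to 2.673% in the single-animal libraries. The 3 total mRNA libraries of neurons came from 1 animal each but share the second index of the 2-animal libraries. They held 9.592%, 4.017% and 4.833%. The number of animals therefore serves below only as a name for the 2 sets, and the cause of the split was not tested. Each pair of libraries that shares animals lies within 1 set, and the called genes and some of the lists are therefore given within each set as well. Some libraries share animals across the groups, and the second index and the number of animals separate the replicates within each group. The p-values therefore measure the spread between libraries. That spread was estimated over all total mRNA libraries of the series, stem cells and neurons included, and not over these 6 alone.

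Of 17592 genes tested with edgeR's quasi-likelihood test on the total mRNA libraries of the series, 663 (3.77%) differed between LNB and ENB at an adjusted p under 0.05. In LNB, 493 of them (2.8% of the genes tested) were higher and 170 (0.966%) lower, and the median log2 difference of all genes tested was 0.05. The share of higher genes was not stable to the fit. It was 74.4% of the called genes here, 38.4% when these 6 libraries were fitted alone, 46.8% in a limma fit of TPM and 22.4% with the shared animals as a random effect. For the 170 lower genes all 3 LNB libraries lay below all 3 ENB libraries, an arrangement found in 11% of all genes tested. For the higher genes all LNB libraries lay above all ENB libraries in 457, also an arrangement of 11% of all genes, and the groups overlapped in 36.

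By their medians, the lower genes had about the same size of difference in both sets of libraries, and the higher genes did not. The 170 lower genes had a median log2 difference of -2.06 between LNB replicate 2 and ENB replicates 1 and 3, and of -2.19 between LNB replicates 1 and 3 and ENB replicate 2. The 493 higher genes had medians of 1.33 and 3.14 in the same sets. LNB replicate 2 was the lowest LNB library for 423 of the 493 higher genes (85.8%), against 32.9% of all genes tested. With the second index as a term in the fit, 58 of the lower genes and 97 of the higher genes were called again. Leaving out 1 library at a time ended the call of 596 of the 663 genes at least once. The fit without LNB replicate 2 called 1643 genes, and that without ENB replicate 3 called 96. The 67 genes called in all 6 of these fits, 39 higher and 28 lower, are called robust in what follows, and those that stand in no list were named after their values were seen.

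**Figure D1:**
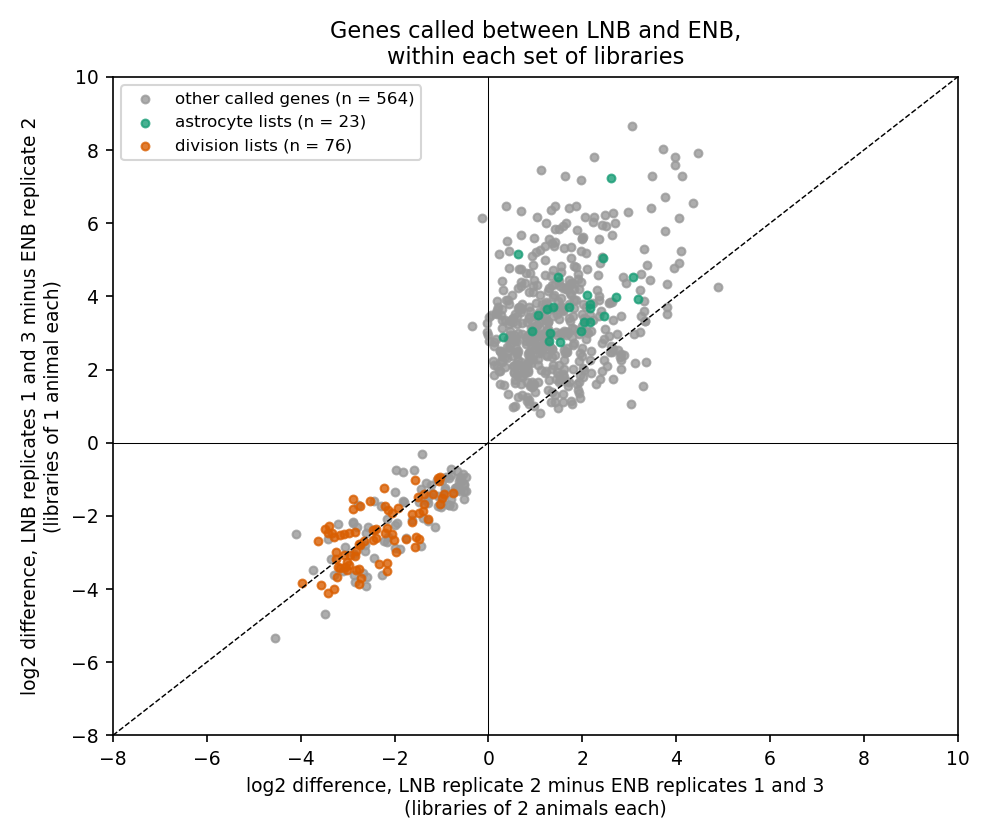
Log2 differences of the 663 called genes (points) within the libraries of 2 animals each (horizontal axis, LNB replicate 2 minus the mean of ENB replicates 1 and 3) and within the libraries of 1 animal each (vertical axis, the mean of LNB replicates 1 and 3 minus ENB replicate 2), from CPM with 1 added; the dashed line marks equal values. The 76 genes of the division lists (orange) lie along the line below 0, and the 23 genes of the astrocyte lists (green) lie above the line.

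Genes of cell division fell in LNB. Dcx (ENSMUSG00000031285, GRCm38 chromosome X, 143855842 to 143933396), the microtubule-binding protein of migrating neuroblasts whose promoter drives the Cre, was at 1191, 1583 and 917 CPM (counts scaled to library size) in LNB replicates 1 to 3, against 1061, 1574 and 1129 CPM in ENB replicates 1 to 3. The groups overlapped, and the log2 difference was -0.03 ± 0.26 (SE derived from the test statistic, adjusted p = 0.98). Since Dcx chose the cells in both tissues, its level is not independent of the sort.

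Cdk1 (ENSMUSG00000019942, chromosome 10, 69335146 to 69352912), the kinase that starts mitosis, was at 20.9, 16.5 and 10.2 CPM in LNB, against 151, 159 and 129 CPM in ENB. All LNB libraries lay far below all ENB libraries, at a log2 difference of -3.20 ± 0.47 (adjusted p = 0.007). Ccnd2 (ENSMUSG00000000184, chromosome 6, 127125162 to 127152188), the D-type cyclin of G1 that serves adult neural progenitors, was at 905, 1443 and 760 CPM in LNB, against 3830, 5186 and 4146 CPM in ENB. It fell by 2.08 ± 0.32 on the log2 scale (adjusted p = 0.0082), and LNB replicate 2 was the LNB library nearest to ENB. Both genes were robust, and of the 3 genes chosen to mark this step both genes of division differed and Dcx did not pass the test.

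Of 76 genes of mitosis, all tested, 38 fell in LNB (50%, against 0.966% of all genes tested) and 0 rose. The median log2 difference of these 76 was -3.05, against 0.05 for all genes. All 3 LNB libraries lay below all 3 ENB libraries for 75 of them. Leaving out LNB replicate 2 gave 42 lower genes of the list, and leaving out each other library gave 10 to 16. The summed level of the list was 1467, 1405 and 1022 CPM in LNB, against 9371, 7891 and 10492 CPM in ENB. The median difference was -2.89 within the 2-animal libraries and -2.77 within the single-animal libraries, and it was -3.19 and -2.93 within the 2 pairs of libraries that share animals. In bulk samples of this kind fewer dividing cells and less of these mRNAs per cell cannot be told apart.

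The robust mitotic genes work at several steps of the division. Tacc3, which stabilises spindle microtubules, was at 28.7, 19.2 and 8.73 CPM in LNB, against 162, 177 and 219 CPM in ENB (log2 -3.29 ± 0.36, adjusted p = 0.0045). Kif11, the kinesin that pushes spindle poles apart, was at 25.7, 21 and 14.6 CPM in LNB, against 208, 125 and 224 CPM in ENB (log2 -3.18 ± 0.40, adjusted p = 0.0059). Kif22, a kinesin bound to chromosome arms, fell by 2.83 ± 0.32 on the log2 scale. Ccna2, the cyclin of S phase and G2, was at 44.5, 46.3 and 24.0 CPM in LNB, against 257, 184 and 262 CPM in ENB, a fall of 2.61 ± 0.36. Incenp of the chromosomal passenger complex, the condensin subunit Smc2, Racgap1 of the central spindle and the cytokinesis kinesin Kif20a fell, with log2 differences of -2.65 ± 0.37, -2.62 ± 0.36, -2.53 ± 0.34 and -1.59 ± 0.22. All of these had LNB and ENB libraries that did not overlap.

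Other well-known genes of the list did not pass the test, although all LNB libraries lay below all ENB libraries for Top2a, Mki67 and Ccnb1. The topoisomerase Top2a was at 62.6, 55.8 and 26 CPM in LNB, against 538, 491 and 687 CPM in ENB (log2 -3.57 ± 1.14, adjusted p = 0.11). The proliferation marker Mki67 was at 58.0, 26.2 and 18.2 CPM in LNB, against 360, 240 and 418 CPM in ENB (log2 -3.31 ± 0.95, adjusted p = 0.079). Ccnb1, a cyclin that activates Cdk1, was at 15.0, 14.5 and 0 CPM in LNB, against 216, 156 and 259 CPM in ENB (log2 -4.39 ± 1.28, adjusted p = 0.081). Ccnb1 and Pttg1 were named after their values were seen. The 1 mitosis gene whose groups overlapped was Pttg1, securin, with 18.1, 7.31 and 52.7 CPM in LNB, against 7.33, 4.38 and 6.52 CPM in ENB (log2 2.09 ± 0.58, adjusted p = 0.069). Pttg1 passed the test in the higher direction without LNB replicate 2 (adjusted p = 0.00705).

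**Figure D2:**
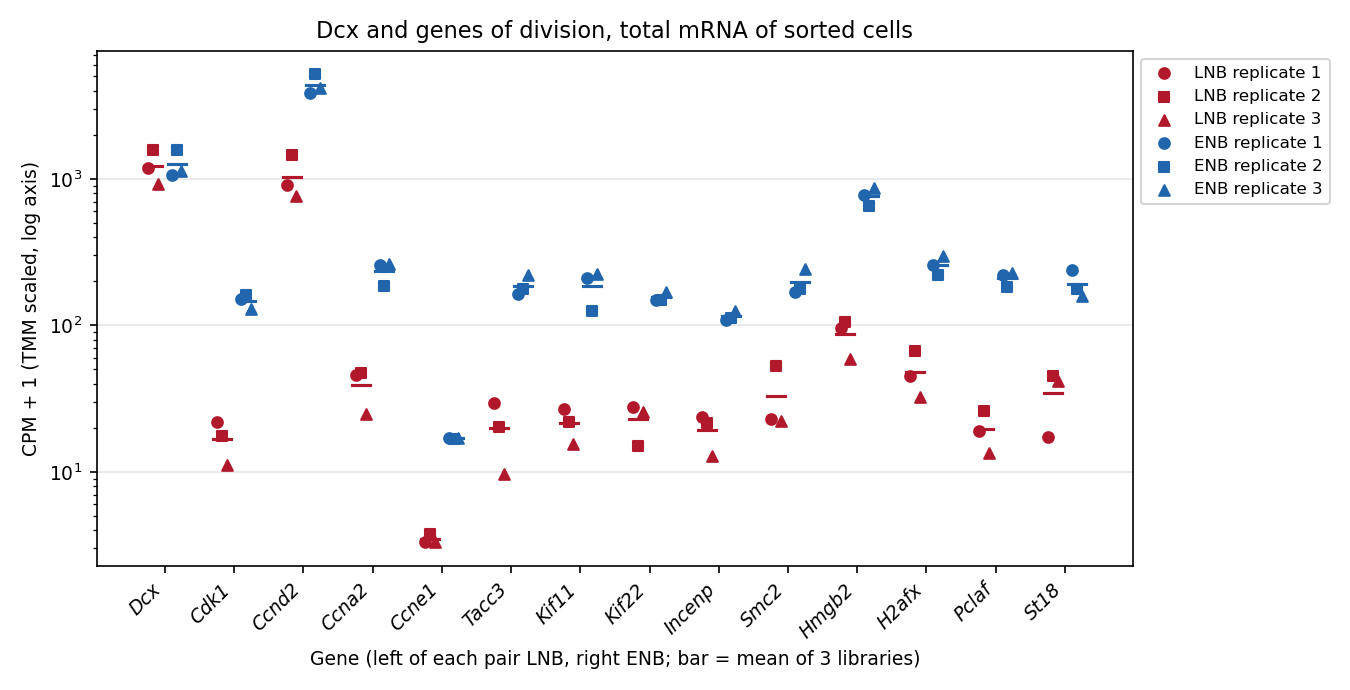
CPM with 1 added (log axis) of Dcx, 12 genes of division or its chromatin and St18 in the 3 LNB (red, left of each pair) and 3 ENB libraries (blue, right); symbols give the replicate and bars the mean. The groups overlap for Dcx and are apart for all others, with Cdk1 at 10.2 to 20.9 CPM in LNB and 129 to 159 CPM in ENB.

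The promoters of Cdk1 and Ccnb2, which both fell, show the elements that mitotic genes are known for, and Ccnb2 was chosen after its values were seen. The stretches below run from 150 bases before to 20 bases after the annotated start, from the RefSeq table for GRCm38.p6, and capitals mark each CCAAT box (CCAAT, or ATTGG on the other strand) and each CHR (TTTGAA or TTCGAA, read on both strands). Cdk1 lies on the minus strand at chr10:69352893-69353062 and Ccnb2, a mitotic cyclin, on the minus strand at chr9:70421535-70421704.
Cdk1: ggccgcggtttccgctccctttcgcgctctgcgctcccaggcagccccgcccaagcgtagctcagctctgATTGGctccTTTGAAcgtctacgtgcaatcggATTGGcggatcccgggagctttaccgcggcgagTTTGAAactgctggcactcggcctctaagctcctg
Ccnb2: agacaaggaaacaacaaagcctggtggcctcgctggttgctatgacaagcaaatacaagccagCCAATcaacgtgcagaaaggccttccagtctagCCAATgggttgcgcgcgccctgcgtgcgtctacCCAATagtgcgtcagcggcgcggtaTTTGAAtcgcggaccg

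The Cdk1 stretch holds 2 CCAAT boxes, which begin 80 and 48 bases before the start, and 2 CHR, the nearer of which begins 15 bases before it. The Ccnb2 stretch holds 3 CCAAT boxes and 1 CHR. Ccnb2 was at 4.26, 6.41 and 3.92 CPM in LNB, against 63.8, 50.7 and 50.5 CPM in ENB, a fall of 3.48 ± 0.80 on the log2 scale (adjusted p = 0.036) that was no longer called in the 5 fits without 1 library that kept LNB replicate 2 (adjusted p up to 0.131).

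Over windows from 250 bases before to 50 after the start, 1 window a gene, 22 of the 31 mitosis genes that fell and have a window held a CHR (71%), and 21 (67.7%) held both a CHR and a CCAAT box. Of the 14 genes of DNA replication that fell and have a window, 0 held a CHR and 8 (57.1%) held a CCAAT box. Of all 27025 promoters, 19.4% held a CHR, 37.9% a CCAAT box and 7.7% both, and among the 11701 genes tested that have a window these were 13.6%, 38.4% and 5.84%. Where the 2 motifs overlap each was counted. The matches describe the letters and not the binding of a factor.

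Genes of S phase fell too. Of 50 DNA replication genes, all tested, 19 fell (38%, against 0.966% of all genes tested) and 0 rose (median -1.85). There were 25 lower genes without LNB replicate 2 and 1 to 5 without each other library. The median was -1.62 within the 2-animal libraries and -1.79 within the single-animal libraries. The list summed to 1321, 1620 and 1145 CPM in LNB, against 4005, 3734 and 4164 CPM in ENB. Dut, which removes dUTP, and the helicase subunit Mcm6 fell, with log2 differences of -1.86 ± 0.31 and -2.39 ± 0.40, and both lost the call only without LNB replicate 1 (adjusted p = 0.0554 for both). The polymerase subunit Pole, the ribonucleotide reductase subunit Rrm2 and the sliding clamp Pcna fell, with log2 differences of -3.57 ± 0.64, -3.13 ± 0.63 and -1.04 ± 0.22, and were lost in 4 or 5 of the 6 fits without 1 library (adjusted p up to 0.0771, 0.0965 and 0.111). Pclaf, the Pcna-associated factor, which stands in none of the lists, was at 18.1, 25.1 and 12.5 CPM in LNB, against 218, 183 and 226 CPM in ENB (log2 -3.48 ± 0.45, adjusted p = 0.0059).

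Among 25 G1 cyclins, their kinases and E2F factors 5 fell (20%, against 0.966% of all genes tested) and 0 rose (median -0.76), against 7 lower without LNB replicate 2 and 2 without each other library. Within the 2-animal libraries the median was -0.71, and within the single-animal libraries it was -1.06. Ccne1, the cyclin of the G1 to S transition, was at 2.31, 2.76 and 2.31 CPM in LNB, against 15.9, 15.8 and 16.0 CPM in ENB (log2 -2.68 ± 0.36, adjusted p = 0.0059), with the libraries of each group close together. Cdk6, a partner of the D-type cyclins, and the repressor E2f7 fell, with log2 differences of -3.05 ± 0.61 and -2.33 ± 0.52, and both were lost in the 5 fits without 1 library that kept LNB replicate 2 (adjusted p up to 0.0867 and 0.137). Ccnd1, the other D-type cyclin of neural progenitors, was at 32.6, 7.37 and 60.0 CPM in LNB, against 42.5, 28.4 and 35.7 CPM in ENB, and its groups overlapped (log2 -0.10 ± 0.54, adjusted p = 0.96).

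Of 17 CDK inhibitors and antiproliferative genes 15 were tested, 1 fell (6.67%, against 0.966% of all genes tested) and 0 rose. The median was -0.32, and 0.00 with limma on TPM. It was -0.24 within the 2-animal libraries and -0.10 within the single-animal libraries. The one that fell was Cdkn2d, which blocks Cdk4 and Cdk6, at 38.9, 60.5 and 49.9 CPM in LNB, against 105, 130 and 106 CPM in ENB (log2 -1.19 ± 0.24, adjusted p = 0.027, up to 0.0987 without 1 library). Cdkn1b, which blocks Cdk2 and holds cells out of the cycle, was at 71.3, 86.5 and 40.6 CPM in LNB, against 107, 152 and 113 CPM in ENB (log2 -0.91 ± 0.53, adjusted p = 0.40). Cdkn1a had a difference of -0.69 ± 0.40 and Cdkn1c of -0.32 ± 0.63, and both had groups that overlapped.

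Of 31 chromatin genes of dividing cells 12 fell (38.7%, against 0.966% of all genes tested) and 0 rose (median -1.14). There were 20 lower genes without LNB replicate 2 and 6 to 8 without each other library. The median was only -0.75 within the 2-animal libraries, against -1.38 within the single-animal libraries. Hmgb2 (ENSMUSG00000054717, chromosome 8, 57511843 to 57515999), a chromatin-bending protein of proliferating cells, was at 94.2, 105 and 58.2 CPM in LNB, against 775, 654 and 868 CPM in ENB (log2 -3.15 ± 0.28, adjusted p = 0.0019). The histone variants H2afx, H2afz and H2afv fell, with log2 differences of -2.45 ± 0.28, -1.63 ± 0.22 and -1.30 ± 0.17, and the histone chaperones Anp32b and Nasp had differences of -1.67 ± 0.19 and -1.36 ± 0.20. Hmgb2 and these 5 were robust. The maintenance methyltransferase Dnmt1 fell by 1.28 ± 0.32 (adjusted p = 0.048, up to 0.181 without 1 library), and the Polycomb methyltransferase Ezh2 had groups that overlapped (log2 -0.62 ± 0.50, adjusted p = 0.60). Among 25 DNA repair genes 3 fell (12%) and 0 rose (median -1.83), against 7 lower without LNB replicate 2 and 0 or 1 without each other library. Their median was -1.20 within the 2-animal libraries and -1.63 within the single-animal libraries. Of the 3 that fell, the helicase Brip1 was at 0.365, 0.896 and 0 CPM in LNB, against 23.1, 19.4 and 15.3 CPM in ENB (log2 -5.33 ± 0.87, adjusted p = 0.016, up to 0.0678 without LNB replicate 1).

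The 12 largest falls among named genes with at least 20 CPM in ENB and no overlap between the groups were taken by their size. Ankle1, a nuclease of the midbody, was at 0.73, 2.62 and 0.89 CPM in LNB, against 59.3, 72.4 and 109 CPM in ENB (log2 -5.74 ± 1.13, adjusted p = 0.025). Kntc1 of the kinetochore, the kinase Melk, the centromere protein Cenpm, the chromatin ATPase Atad2 and Uhrf1, which brings Dnmt1 to replicated DNA, fell, with log2 differences of -4.95 ± 1.04, -4.75 ± 1.04, -4.53 ± 0.94, -4.11 ± 0.95 and -3.93 ± 0.84. The others were Sgo1, which guards sister chromatid cohesion, the cytokinesis kinesin Kif23, the replication protease Fam111a, the kinetochore protein Knstrn, the cohesin acetyltransferase Esco2 and the phosphatase Cdc25c, which activates Cdk1, with log2 differences of -3.89 to -3.57. Without 1 library their adjusted p-values reached 0.092 to 0.14. They lost the call in each such fit other than that without LNB replicate 2, and Knstrn lost it there too.

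Of all 170 genes that fell, 76 stood in the 5 division lists, which hold 206 of the genes tested, and 0 of the 493 higher genes did. Outside the lists, beside Pclaf, the robust falls with a gene name were those of Lockd, a noncoding RNA next to Cdkn1b, at 12.8, 10.7 and 6.05 CPM in LNB against 71.5, 69.4 and 82.6 CPM in ENB, of the importin Kpna2 (log2 -2.82 ± 0.39), of Mxd3, a Max partner expressed in S phase (-1.63 ± 0.24), of Pmf1 of the kinetochore (-2.01 ± 0.32), of the chloride channel protein Clic1 (-1.98 ± 0.30) and of the selenoprotein Selenoh (-1.43 ± 0.21).

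**Figure D3:**
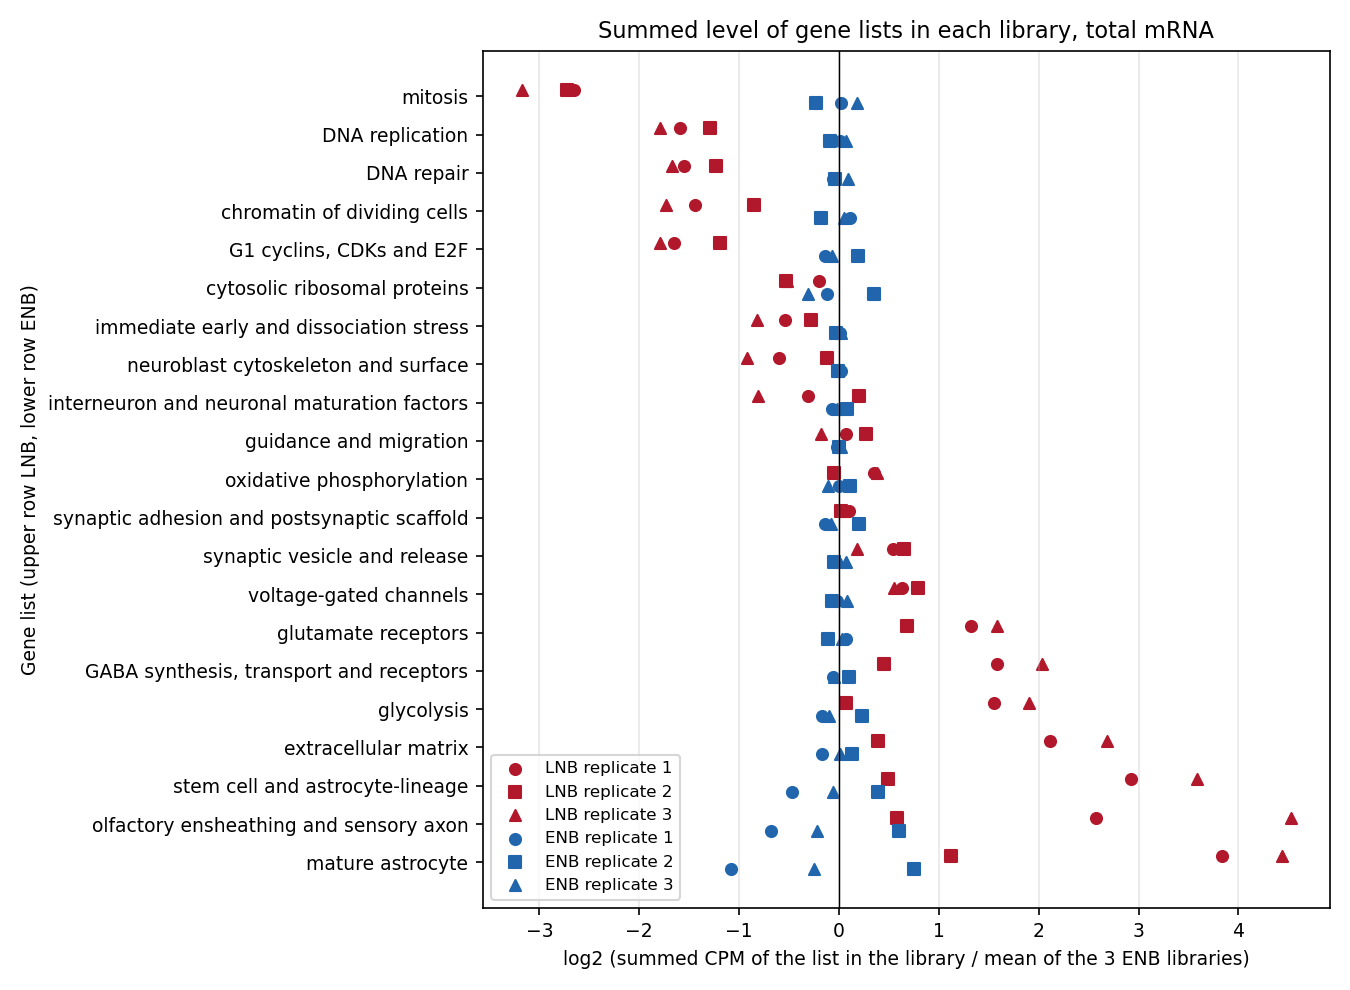
Summed CPM of 21 gene lists (rows) in each LNB (red, upper row) and ENB library (blue, lower row) as the log2 ratio to the mean of the 3 ENB libraries; symbols give the replicate. The division lists of all 3 LNB libraries lie to the left of all ENB libraries, while the astrocyte and ensheathing lists of LNB replicate 2 lie near those of ENB and those of LNB replicates 1 and 3 far to the right.

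Of 47 genes of the neuroblast cytoskeleton and surface 5 fell (10.6%, against 0.966% of all genes tested) and 1 rose (2.13%, against 2.8%). The median was -0.31, and 9 fell without LNB replicate 2 and 1 or 2 without each other library. Within the 2-animal libraries the median was 0.11, and within the single-animal libraries it was -0.66. The list summed to 36332, 50773 and 29072 CPM in LNB, against 55862, 54899 and 54580 CPM in ENB. Tuba1b, a tubulin that dividing cells also use, was at 288, 345 and 264 CPM in LNB, against 875, 827 and 834 CPM in ENB (log2 -1.50 ± 0.18, adjusted p = 0.0049), and was robust. Tubb5 fell by 1.38 ± 0.23 (adjusted p = 0.012, and 0.0528 without LNB replicate 1), and the doublecortin-like kinase Dclk2 fell by 1.06 ± 0.23 (adjusted p = 0.031, up to 0.117 without 1 library). The neuronal tubulin Tubb3 was at 1195, 1866 and 931 CPM in LNB, against 2264, 2103 and 1968 CPM in ENB (log2 -0.67 ± 0.24, adjusted p = 0.14). St8sia2, which adds polysialic acid to Ncam1, had groups that overlapped (log2 -0.07 ± 0.34). The 1 that rose was Fabp7, a lipid-binding protein of radial glia, astrocytes and ensheathing cells, at 994, 84.7 and 2151 CPM in LNB, against 51.2, 42.7 and 57.5 CPM in ENB, which was lost in the 5 fits without 1 library that kept LNB replicate 2 (adjusted p up to 0.0924).

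Of 61 interneuron and neuronal maturation factors tested, of 62, 1 fell and 1 rose (1.64% each, against 0.966% lower and 2.8% higher among all genes tested). The median was -0.11, with -0.53 without LNB replicate 2 and 0.03 without LNB replicate 3. It was 0.16 within the 2-animal libraries and -0.55 within the single-animal libraries. The one that fell was St18 (ENSMUSG00000033740, chromosome 1, 6487231 to 6860940), a zinc finger factor of the Myt1 family, at 16.3, 44.4 and 40.4 CPM in LNB, against 238, 175 and 157 CPM in ENB (log2 -2.50 ± 0.35, adjusted p = 0.0061). All LNB libraries lay below all ENB libraries, and it was robust. The bulb interneuron factors Sp8, Etv1 and Tshz1 had overlapping groups, with differences of 0.86 ± 0.36, 0.43 ± 0.30 and 0.63 ± 0.31. The 1 that rose was Rora, a nuclear receptor, by 1.71 ± 0.41 (adjusted p = 0.042), with 0.41 within the 2-animal libraries and 2.84 within the single-animal libraries. Its call was lost in the 5 fits without 1 library that kept LNB replicate 2 (adjusted p up to 0.167). Of 36 progenitor and commitment factors tested, of 37, 0 fell and 2 rose (5.56%; median 0.26, and -0.03 with shared animals as a random effect), the Wnt effector Tcf7l2 and Id2, an inhibitor of proneural factors. Id2 was lost in the same 5 fits (adjusted p up to 0.0907), and 9 genes of the list rose and 9 fell without LNB replicate 2. The median of this list was -0.49 within the 2-animal libraries and 0.47 within the single-animal libraries. Dlx2, which directs interneuron fate, was at 690, 820 and 389 CPM in LNB, against 1144, 1467 and 1192 CPM in ENB (log2 -1.0 ± 0.31, adjusted p = 0.10). The Notch ligand Dll3 fell by 3.36 ± 0.70 (adjusted p = 0.028, up to 0.103 without 1 library), from the list of Notch, BMP, Wnt and hedgehog genes.

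Of the 493 genes higher in LNB, 66 had LNB libraries within 2-fold of each other. This cut was chosen after the values were seen, so the closeness of the LNB libraries is fixed by the choice, and the members named below are given as a description. The 66 include genes of neurons and also Omp, a gene of sensory neurons whose axons end in the bulb. How many of the 66 are genes of neurons was not counted. Eno2 (ENSMUSG00000004267, chromosome 6, 124760053 to 124769673), the enolase of neurons, was at 60.7, 59.6 and 61.3 CPM in LNB, against 5.43, 6.89 and 6.65 CPM in ENB (log2 3.26 ± 0.54, adjusted p = 0.012). The LNB libraries were nearly equal and far above ENB, and the call was lost only without ENB replicate 1 or 3 (adjusted p up to 0.0657).

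Several of the even genes were robust. Tnik, a kinase of the postsynaptic density, was at 202, 146 and 275 CPM in LNB, against 60.7, 36.1 and 62.9 CPM in ENB (log2 1.96 ± 0.27, adjusted p = 0.0059). Abr, a regulator of small GTPases, was at 295, 280 and 376 CPM in LNB, against 115, 105 and 82.2 CPM in ENB (log2 1.66 ± 0.22, adjusted p = 0.0059). Dab1, the adaptor through which Reelin acts on migrating neurons, was at 86.6, 116 and 126 CPM in LNB, against 32.6, 40.6 and 27.1 CPM in ENB (log2 1.71 ± 0.25, adjusted p = 0.007). The adhesion receptor Adgrb2, the sodium-activated potassium channel Kcnt1, the calcium sensor Syt7 and the membrane protein Fam171b rose by 1.75 ± 0.25, 2.63 ± 0.38, 2.96 ± 0.46 and 1.35 ± 0.19. Kcnc4, a fast potassium channel, was at 16.9, 13.0 and 21.7 CPM in LNB with 0 counts in ENB, and was at least 185-fold higher when ENB was set to 3 counts over its libraries.

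**Figure D4:**
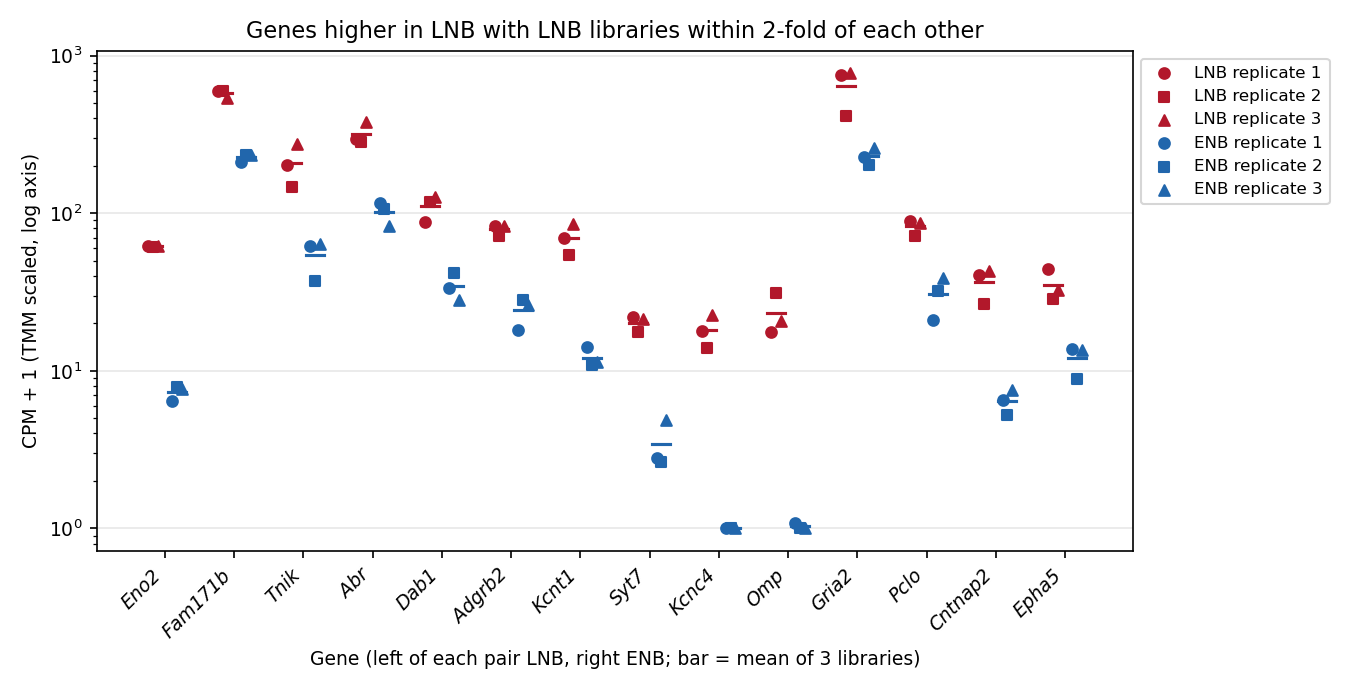
CPM with 1 added (log axis) of 14 of the 66 higher genes whose LNB libraries lay within 2-fold of each other, in the 3 LNB (red, left of each pair) and 3 ENB libraries (blue, right); symbols give the replicate and bars the mean. All LNB libraries lie above all ENB libraries, with Eno2 at 59.6 to 61.3 CPM in LNB and 5.43 to 6.89 CPM in ENB.

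Of 50 synaptic vesicle genes 6 rose (12%, against 2.8% of all genes tested) and 0 fell (median 0.54, and 0.33 without LNB replicate 2). Without LNB replicate 2 there were 7 higher genes, and without each other library 1 to 3. The list summed to 4468, 4815 and 3475 CPM in LNB, against 3004, 2958 and 3225 CPM in ENB. Beside Syt7 these included the synuclein Sncb (log2 4.69 ± 0.96), the active zone scaffold Pclo (1.46 ± 0.32) and the endocytic GTPase Dnm1 (3.05 ± 0.69), which were lost in 4 or 5 of the fits without 1 library (adjusted p up to 0.116 to 0.132). The calcium sensor Syt1 was at 179, 153 and 73.2 CPM in LNB, against 33.0, 42.6 and 26.5 CPM in ENB (log2 1.99 ± 0.63, adjusted p = 0.10), and Snap25 of the fusion complex had a difference of 1.02 ± 0.61 (adjusted p = 0.42). Of 57 voltage-gated channel genes 3 rose (5.26%) and 0 fell (median 0.96, and 0.54 with limma on TPM), against 7 higher without LNB replicate 2 and 1 without each other library. The list had sums of 2104, 2354 and 2000 CPM in LNB, against 1342, 1301 and 1444 CPM in ENB. All 3 LNB sums of both lists were above all ENB sums.

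Of 55 genes of synaptic adhesion and the postsynaptic scaffold 7 rose (12.7%) and 1 fell (median 0.70), against 9 higher without LNB replicate 2 and 0 or 1 without each other library. Cntnap2, which clusters potassium channels on axons, rose by 2.69 ± 0.53 (adjusted p = 0.025). The kinase subunit Camk2g and the receptor phosphatase Ptprf rose by 1.61 ± 0.30 and 1.28 ± 0.26. These 3 were lost in the 5 fits without 1 library that kept LNB replicate 2 (adjusted p up to 0.0873 to 0.0958). Nrxn3, Nlgn1 and Dlg4 had overlapping groups. Medians of the synaptic vesicle, adhesion and channel lists were 0.65, 0.59 and 0.83 within the 2-animal libraries and 0.55, 0.92 and 1.18 within the single-animal libraries.

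Receptors for both main transmitters rose in part. Of 26 genes of GABA and glycine transmission tested, of 28, 9 rose (34.6%, against 2.8% of all genes tested) and 0 fell (median 1.28), against 9 without LNB replicate 2 and 1 to 3 without each other library. The receptor subunit Gabra4 was at 31.7, 25.0 and 59.1 CPM in LNB, against 3.71, 4.13 and 7.30 CPM in ENB (log2 2.92 ± 0.48, adjusted p = 0.012, lost without ENB replicate 1 or 2, up to 0.0594). Gabra2 rose by 2.23 ± 0.40, and the chloride exporter Slc12a5, which makes GABA inhibitory in mature neurons, was at 28.3, 15.5 and 8.01 CPM in LNB, against 2.76, 2.38 and 2.54 CPM in ENB (log2 2.75 ± 0.53, adjusted p = 0.022). Both were lost in 4 or 5 of the fits without 1 library (adjusted p up to 0.0819 and 0.0969). The called genes also include Slc6a11, the GABA transporter of astrocytes, at 1931, 153 and 2842 CPM in LNB, against 3.88, 24.7 and 9.20 CPM in ENB (log2 7.04 ± 1.19, adjusted p = 0.012, up to 0.0771 without 1 library), with LNB replicate 2 the lowest of LNB. The synthetic enzymes Gad1 and Gad2 and the vesicular transporter Slc32a1, which mark inhibitory neurons, had overlapping groups with differences of -0.29 ± 0.61, -0.50 ± 0.31 and -0.22 ± 0.62.

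Of 33 glutamate receptor genes 4 rose (12.1%) and 0 fell (median 1.11, and 0.63 without LNB replicate 2), against 7 higher without LNB replicate 2 and 1 to 3 without each other library. The AMPA receptor subunit Gria2 was at 747, 414 and 769 CPM in LNB, against 226, 202 and 259 CPM in ENB (log2 1.49 ± 0.30, adjusted p = 0.025), and Gria1 at 233, 67.0 and 204 CPM in LNB, against 4.66, 11.3 and 7.83 CPM in ENB (log2 4.41 ± 0.70, adjusted p = 0.0096). Gria1 lost the call only without ENB replicate 3 (adjusted p = 0.0567), and Gria2 in the 5 fits without 1 library that kept LNB replicate 2 (up to 0.0877). The AMPA receptor partner Shisa9 rose by 5.38 ± 0.80 and was robust, although LNB replicate 2, at 31.4 CPM, was far below LNB replicates 1 and 3, at 185 and 301 CPM. The NMDA receptor subunits Grin1 and Grin2b had differences of 1.39 ± 0.48 and 0.59 ± 0.31 and did not pass the test.

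Of 76 genes of guidance and migration 4 rose (5.26%, against 2.8% of all genes tested) and 1 fell (1.32%, against 0.966%). Without LNB replicate 2 there were 8 higher genes, and without each other library 1 or 2. The median was 0.41, and -0.01 among genes above a filter of 10 CPM. The list summed to 5283, 6104 and 4444 CPM in LNB, against 4984, 5041 and 5110 CPM in ENB. The ephrin receptor Epha3 fell, with 3.65, 6.48 and 1.42 CPM in LNB against 33.0, 26.4 and 57.7 CPM in ENB (log2 -3.29 ± 0.58, adjusted p = 0.016), whereas its relative Epha5 rose, with 43.3, 27.5 and 31.5 CPM in LNB against 12.7, 7.89 and 12.6 CPM in ENB (log2 1.62 ± 0.33, adjusted p = 0.027). The netrin receptor Unc5c rose by 2.74 ± 0.69 (adjusted p = 0.05). Epha3 was lost without ENB replicate 3 or LNB replicate 1 (up to 0.0678), Epha5 in the 5 fits without 1 library that kept LNB replicate 2 (up to 0.0922) and Unc5c when any 1 library was left out (up to 0.185). Prokr2, the receptor of a bulb chemoattractant for neuroblasts, was at 337, 496 and 191 CPM in LNB, against 86.4, 82.4 and 118 CPM in ENB, without overlap but short of the threshold (log2 1.84 ± 0.94, adjusted p = 0.33). The Slit receptors Robo1 and Robo2 had differences of -1.08 ± 0.53 and 0.69 ± 0.32 and did not pass the test.

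Of 24 markers of bulb interneuron subtypes tested, of 26, 2 rose (8.33%, against 2.8% of all genes tested) and 0 fell, and without 1 library 0 to 4 rose. The median was 2.42, with 1.29 without LNB replicate 1, 1.66 without ENB replicate 3 and 0.91 with limma on TPM. From CPM with 1 added, a measure unlike that of the fit, the median was 1.02 within the 2-animal libraries and 1.34 within the single-animal libraries. Calb2, the calcium-binding protein calretinin of granule and periglomerular cells, was at 50.6, 50.7 and 37.8 CPM in LNB, against 4.40, 17.0 and 3.13 CPM in ENB (log2 2.53 ± 0.71, adjusted p = 0.071). Th, the dopamine-synthesis enzyme of periglomerular cells, was at 0, 6.00 and 49.7 CPM in LNB and at 0 counts in all ENB libraries, at least 150-fold higher against 3 counts over ENB, but adjusted p = 0.058. The secreted glycoprotein Reln, which stands in the subtype, guidance and mitral cell lists, was at 73.2, 14.0 and 83.0 CPM in LNB, against 1.81, 0 and 0 CPM in ENB (log2 6.50 ± 1.31, adjusted p = 0.026, up to 0.0989 without ENB replicate 3).

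Marker genes of astrocytes were higher in LNB, at levels that differed between the LNB libraries. Of 20 mature astrocyte genes 16 rose (80%, against 2.8% of all genes tested) and 0 fell (median 3.77). The list summed to 18966, 2887 and 28652 CPM in LNB, against 629, 2237 and 1115 CPM in ENB, and LNB lay above ENB without overlap for 15 genes of the list. The median difference was 1.67 within the 2-animal libraries and 3.48 within the single-animal libraries. The glutamate transporter Slc1a3 (ENSMUSG00000005360, chromosome 15, 8634124 to 8710807) was at 3244, 553 and 4566 CPM in LNB, against 102, 235 and 154 CPM in ENB (log2 4.09 ± 0.72, adjusted p = 0.016), and the water channel Aqp4 at 658, 136 and 981 CPM in LNB, against 3.36, 34.3 and 26.9 CPM in ENB (log2 4.78 ± 0.95, adjusted p = 0.025). The gap junction protein Gja1 rose by 4.64 ± 1.13, the intermediate filament Gfap by 4.47 ± 1.02 and Fabp7 by 4.41 ± 0.85. LNB replicate 2 was the lowest LNB library for each of these but lay above all ENB libraries. Leaving out any 1 library other than LNB replicate 2 left 0 to 4 genes of the list called, and leaving out LNB replicate 2 gave 19.

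Of 35 stem cell and astrocyte-lineage genes 14 rose (40%) and 0 fell (median 2.68), against 25 higher without LNB replicate 2 and 0 to 5 without each other library. The list had sums of 41948, 7740 and 66044 CPM in LNB, against 3991, 7258 and 5303 CPM in ENB. Their median was 0.61 within the 2-animal libraries and 2.49 within the single-animal libraries. Some genes stand in both this list and the mature astrocyte list. Together the 2 lists hold 46 genes, of which 23 rose. By TPM, in genes chosen after their values were seen, the lipoprotein Apoe was at 16651, 3543 and 28436 in LNB, against 371, 1753 and 1117 in ENB, and ranked 3 among all genes in the mean of LNB and 96 in that of ENB, whereas the neuronal tubulin Tuba1a was at 7991, 14141 and 5470 TPM in LNB, against 15038, 13425 and 15126 TPM in ENB. How far astrocyte RNA contributed to the 493 higher genes was not tested.

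**Figure D5:**
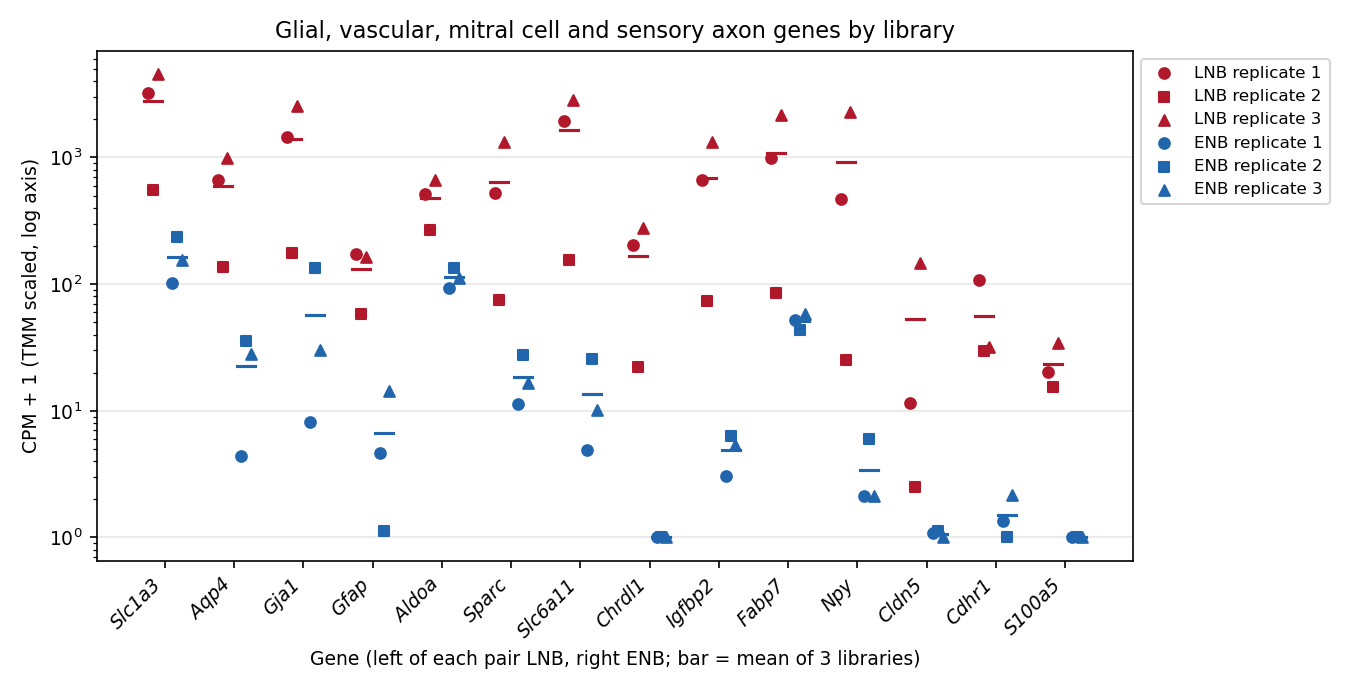
CPM with 1 added (log axis) of 14 genes of astrocytes, matrix, ensheathing and vascular cells, mitral cells and sensory axons in the 3 LNB (red, left of each pair) and 3 ENB libraries (blue, right); symbols give the replicate and bars the mean. LNB replicate 2 is the lowest LNB library for each gene, for Slc1a3 at 553 CPM beside 3244 and 4566 CPM, and Chrdl1 and S100a5 had 0 counts in ENB.

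Markers of further cell types of the bulb were measured too. Of 13 genes of olfactory ensheathing cells and sensory axons tested, of 15, 4 rose (30.8%, against 2.8% of all genes tested) and 0 fell (median 4.68). There were 7 higher genes without LNB replicate 2 and 1 without each other library. The list had sums of 3671, 922 and 14197 CPM in LNB, against 383, 934 and 528 CPM in ENB. The sensory neuron genes S100a5 and Omp were at 19.1, 14.5 and 33.3 CPM and at 16.7, 30.2 and 19.6 CPM in LNB, against 0 counts for S100a5 and 1 count for Omp over the 3 ENB libraries. S100a5 was at least 227-fold higher against 3 counts over ENB and was robust. Omp (ENSMUSG00000074006, chromosome 7, 98143359 to 98145447) had a ratio of 844 (95% exact counting interval 151 to 33366, counting error only), and its call was lost in the 5 fits without 1 library that kept LNB replicate 2 (adjusted p up to 0.106). The 11 mitral and other glutamatergic neuron genes tested, of 12, had a median of 4.18, with 1.86 with limma on TPM and 7.82 without ENB replicate 1. Of these genes 2 rose (18.2%, against 2.8% of all genes tested) and 0 fell, against 1 to 3 higher without 1 library. Among them was Cdhr1, a cadherin of mitral cells and photoreceptors, at 107, 28.6 and 31.0 CPM in LNB, against 0.345, 0 and 1.17 CPM in ENB (log2 6.54 ± 0.79, adjusted p = 0.0049), which was robust. Endothelial genes summed to 35.5, 7.24 and 553 CPM and mural and fibroblast genes to 116, 20.2 and 565 CPM in LNB, against 3.62, 0.125 and 5.02 CPM and 0.604, 8.89 and 0.196 CPM in ENB, with 1 gene of each list called, the transporter Abcb1a and Vtn. The microglia, oligodendrocyte, oligodendrocyte precursor, ependymal, striatal neuron and blood lists had 0 genes called. Microglia genes summed to 96.4, 41.6 and 202 CPM in LNB, against 65.2, 26.3 and 34.9 CPM in ENB, and striatal neuron genes to 185, 208 and 113 CPM in LNB, against 139, 292 and 150 CPM in ENB. Oligodendrocyte genes summed to 2047, 1624 and 3963 CPM in LNB, against 1257, 3175 and 2813 CPM in ENB, with overlap between the groups. The part of RNA from such cells in the genes given above was not tested.

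Of 65 genes of Notch, BMP, Wnt and hedgehog signalling tested, of 67, 8 rose (12.3%, against 2.8% of all genes tested) and 1 fell (1.54%, against 0.966%). Without LNB replicate 2 there were 18 higher and 4 lower genes, and without each other library 1 to 3 higher and 0 lower. The median was 1.37, with 0.19 within the 2-animal libraries, 1.37 within the single-animal libraries and 0.82 without LNB replicate 3. Chrdl1 (ENSMUSG00000031283, chromosome X, 143285674 to 143394263), a BMP antagonist, was at 204, 21.2 and 274 CPM in LNB with 0 counts in ENB, at least 1448-fold higher against 3 counts over ENB (adjusted p = 0.0059), and was robust. Fst, an activin antagonist, was at 52.8, 13.2 and 54.8 CPM in LNB with 1 count over ENB (ratio 1150, 95% exact counting interval 206 to 45478), the Wnt effector Tcf7l2 rose by 2.58 ± 0.42 and the ligand Wnt7a by 1.60 ± 0.32 (adjusted p = 0.016, 0.011 and 0.026, up to 0.087, 0.0649 and 0.111 without ENB replicate 3). Of 39 matrix genes tested, of 41, 8 rose (20.5%) and 0 fell, against 10 higher without LNB replicate 2 and 0 to 2 without each other library. Their median was 1.63, with 0.22 within the 2-animal libraries, 1.90 within the single-animal libraries and 0.96 with limma on TPM. Sparcl1 and Sparc, secreted by astrocytes and vessels, rose by 3.91 ± 0.67 and 5.20 ± 0.93 (adjusted p up to 0.0659 and 0.0858 without ENB replicate 3). The Notch receptor Notch1 had overlapping groups (log2 -0.46 ± 0.34).

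The 12 largest rises among named genes with at least 20 CPM in LNB and no overlap were all of genes with 0 to 2 counts over the 3 ENB libraries. Beside Chrdl1 they included the purine base transporter Slc43a3, the myosin-binding protein Mybpc1, the hyaluronan-binding protein Itih3, the heparan sulfate sulfotransferases Hs3st3b1 and Hs3st3a1, Gdpd4, the adhesion protein Vtn, Clca3a1, the laminin receptor Itga7 and the water channel Aqp1. Lower bounds against 3 counts over ENB ran from 209-fold for Clca3a1 to 463-fold for Slc43a3 among the named genes at 0 other than Chrdl1. Vtn was at 68.9, 14.8 and 490 CPM in LNB with 2 counts over ENB (ratio 2174, 95% exact counting interval 601 to 17960). LNB replicate 2 was the lowest LNB library for each of the 12. Chrdl1, Itih3 and Vtn were robust, and the other genes named here had adjusted p-values up to 0.0515 to 0.136 without ENB replicate 3.

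Of 21 glycolysis genes 3 rose (14.3%, against 2.8% of all genes tested) and 0 fell, against 12 higher without LNB replicate 2 and 1 or 2 without each other library. The median was 1.22, and it was 0.01 within the 2-animal libraries and 1.35 within the single-animal libraries. Aldoa, the aldolase of muscle and brain, was at 513, 265 and 659 CPM in LNB, against 91.9, 134 and 110 CPM in ENB (log2 2.10 ± 0.31, adjusted p = 0.007), and was robust. Of 76 oxidative phosphorylation genes 0 were called (median 0.29). Of 79 ribosomal protein genes 1 fell (1.27%, against 0.966% of all genes tested) and 0 rose (median -0.39, and -0.16 without ENB replicate 2), that of Rpl4, at 595, 634 and 528 CPM in LNB, against 932, 1119 and 976 CPM in ENB (log2 -0.79 ± 0.17, adjusted p = 0.031, up to 0.111 without 1 library).

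Of 29 immediate early and dissociation stress genes tested, of 30, 2 fell (6.9%) and 0 rose (median -0.33, and -0.66 without LNB replicate 2), against 3 lower without LNB replicate 2 and 0 or 1 without each other library. Egr1, an activity-induced factor, was at 290, 364 and 150 CPM in LNB, against 845, 973 and 933 CPM in ENB (log2 -1.77 ± 0.30, adjusted p = 0.013, lost without ENB replicate 3 or LNB replicate 1, up to 0.0527). Fos was at 291, 382 and 180 CPM in LNB, against 432, 403 and 516 CPM in ENB (log2 -0.66 ± 0.43, adjusted p = 0.48). Jun had overlapping groups. Of 24 genes of apoptosis and survival tested, of 27, 1 rose (4.17%, against 2.8% of all genes tested) and 0 fell (median -0.25). Without LNB replicate 2 there were 1 higher and 1 lower gene, and 0 of either without each other library. The gene that rose was the survival factor Bcl2, at 103, 26.7 and 71.2 CPM in LNB, against 19.7, 15.5 and 14.8 CPM in ENB (log2 2.01 ± 0.41, adjusted p = 0.027, up to 0.112 without ENB replicate 3).

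Other libraries of the series gave a second view of the same step. Ribosome-bound mRNA was pulled down through the tagged Rpl22 from tissue of LNB (3 libraries) and ENB (2 libraries), and background pulldowns of tissue without the HA tag were made from olfactory bulb (3) and subventricular zone (3). Of the 170 genes lower in LNB, 121 (71.2%) were also lower in ribosome-bound mRNA of LNB than of ENB, against 44% of all genes tested. They were lower in the bulb background than in that of the subventricular zone in 112 (65.9%), against 48.4% of all genes tested. Of the 493 higher genes, 293 (59.4%) were higher in ribosome-bound mRNA, against 55.9% of all genes tested, and 353 (71.6%) were higher in the bulb background, against 51.5%. The mitosis list had a median log2 difference of -1.71 in ribosome-bound mRNA and of -0.84 in the background pulldowns, against 0.11 and 0.02 for all genes tested. The DNA repair, DNA replication, G1 and chromatin lists had medians of -0.67, -0.22, -0.15 and 0.36 in ribosome-bound mRNA. In the background these were 0.13, -0.22, 0.02 and 0.11. The mature astrocyte and the stem cell and astrocyte-lineage lists, higher in total mRNA, had medians of -0.36 and -0.35 in ribosome-bound mRNA. Their background medians were 0.20 and 0.16. The pulldowns hold RNA of the whole tissue as background, and its share in these differences was not tested.

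The total mRNA of neural stem cells and of bulb neurons, sorted in the same series, places the step between its neighbours, as a description. Cdk1 was at 163, 181 and 215 CPM in the 3 stem cell libraries and at 1.27, 3.80 and 7.63 CPM in the 3 neuron libraries, so that LNB, at 10.2 to 20.9 CPM, lay between ENB and neurons. Ccnd2 was at 2905 to 3397 CPM in stem cells and at 43.4 to 97.3 CPM in neurons, and LNB, at 760 to 1443 CPM, again lay between ENB and neurons. St18 did not follow this order: it was at 28.8 to 42.5 CPM in stem cells and 11.6 to 13.1 CPM in neurons, and was high in ENB alone, at 157 to 238 CPM. Eno2 was at 11.2 to 90.7 CPM in stem cells and 625 to 685 CPM in neurons, and Calb2 at 560 to 1225 CPM in neurons. Ccne1 was at 33.0 to 45.5 CPM in stem cells and at 20 to 34.6 CPM in neurons, so that its lowest level of the 4 stages was that of LNB.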

How the data were processed

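Total mRNA of sorted cells was sequenced on a HiSeq 2000 after Smart-seq2 and Nextera XT, per the labels' protocols. Raw counts per gene were deposited as whole numbers; the tool that made the raw counts is not given in the sources used here. Expected counts and TPM were deposited by the authors too, and the submitters' processing notes name Bowtie2 2.2.6, RSEM 1.2.21 and GRCm38. The TPM file holds 92 lines without a gene ID, which were not used.

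Counts were tested with edgeR 4.0.16 (quasi-likelihood, TMM scaling, R 4.3.3) in 1 fit over the 12 total mRNA libraries of neural stem cells, ENB, LNB and neurons, which share an estimate of the spread, with Benjamini-Hochberg adjustment over all 17592 genes kept by edgeR's filter on low counts. CPM uses the same scaling. The SE beside a log2 difference is the size of that difference divided by the square root of the test's F statistic. It was not fitted separately. Library depth was 6031319 to 15994635 counts, and counting intervals cover counting error only. The script was tested on simulated data. The members and the gene lists were chosen with earlier results of these data known. Genes were named if they marked the step, were among the 12 largest rises or falls without overlap and with at least 20 CPM in the higher group, were anchors of a list, or were among the 4 called members of smallest p in a list; all others were named after their values were seen. Some genes that the rule gives are not reported here.

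Alternatives were DESeq2 1.42.0 (also its size factors in edgeR), no filter and a filter of 10 CPM in 3 libraries, the 6 libraries alone, a block for the replicate number, shared animals as a random effect and TPM with 1 added (limma 3.58.1), the second index as a term, expected counts rounded to whole numbers, removal of 3 genes that overlap ribosomal RNA, and leaving out each library. Same-numbered LNB and ENB libraries had correlated deviations of -0.11 to -0.031, and libraries of shared animals of 0.046 to 0.053. LNB and ENB libraries that shared neither had values of -0.027 to 0.093, a range that spans those of shared animals. Differences within a set of libraries, in ribosome-bound mRNA and in background pulldowns are log2 ratios of mean CPM with 1 added.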

Additional observations from a re-analysis of the deposited data

How the results depend on the processing

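The number of changed genes depended on the fit. It was 663 in the fit reported, 1892 with DESeq2 (1405 higher, 487 lower), 203 with the 6 libraries alone (78 higher), 156 with shared animals as a random effect (35 higher), 155 with the second index as a term (97 higher, 58 lower) and 344 with limma on TPM (161 higher). Without 1 library it ran from 96 to 1643, with 61 to 1152 higher and 33 to 491 lower; the highest values came without LNB replicate 2. The number of mitosis genes that fell was 38 in the fit reported, 14 with the second index as a term and 10 to 42 without 1 library, and that of mature astrocyte genes that rose was 16 in the fit reported, 0 with the 6 libraries alone and with shared animals as a random effect, 2 with the second index, 3 with limma on TPM and 0 to 19 without 1 library. The share of higher genes among those changed was 74.4% in the fit reported and 62.6% with the second index. The replicate number does not pair the libraries, and with the replicate block 205 genes changed, 142 higher and 63 lower, with 16 mitosis and 3 mature astrocyte genes. The cause of these differences was not tested. Of 627 list medians under alternatives, 105 moved by more than the spread between LNB libraries and 25 changed sign, all in the CDK inhibitor, progenitor, interneuron factor, guidance, oligodendrocyte, precursor, striatal and blood lists.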

Other observations

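In a list of neuropeptide genes and receptors 35 of 44 were tested, 2 rose in LNB (5.71%, against 2.8% of all genes tested) and 0 fell (median log2 difference 0.60, and 0.28 without LNB replicate 2). The list does not hold every such receptor. The peptide receptors Nmbr and Ntsr2 were called higher too, by 7.55 and 3.79 (adjusted p = 0.025 and 0.042 with edgeR). They were called in 2 and 1 of the 6 fits without 1 library. Adcyap1r1, the receptor of the peptide PACAP, was at 223, 199 and 220 CPM in LNB replicates 1 to 3, against 95.3, 126 and 88.6 CPM in ENB replicates 1 to 3. The LNB libraries were close together and above all ENB libraries (log2 1.05 ± 0.23, adjusted p = 0.033 with edgeR). Ntrk2, the receptor of the neurotrophin BDNF, which astrocytes express too, was at 1138, 213 and 1389 CPM in LNB, against 153, 170 and 187 CPM in ENB (log2 2.43 ± 0.56, adjusted p = 0.036), with LNB replicate 2 near ENB. The calls of Adcyap1r1 and Ntrk2 were lost in the 5 fits without 1 library that kept LNB replicate 2 (adjusted p up to 0.144 and 0.13).

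Of 36 genes of lipid and cholesterol synthesis and fatty acid oxidation 1 rose (2.78%, a share like the 2.8% of all genes) and 0 fell (median 0.39, with -0.30 within the 2-animal libraries and 0.53 within the single-animal libraries). It was Scd1, a fatty acid desaturase, at 59.6, 19.4 and 195 CPM in LNB, against 8.28, 6.76 and 5.22 CPM in ENB (log2 3.75 ± 0.84, adjusted p = 0.034, up to 0.139 without 1 library).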
